A study of Homo sapiens with 6 samples.

Results

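S100 proteins are small calcium-binding proteins of the EF-hand family that mostly act as dimers, inside cells as calcium-dependent partners of other proteins and outside them as danger signals. S100A8 and S100A9 form calprotectin, which is abundant in neutrophils and monocytes and accumulates as myeloid cells mature, and S100A12 is a related product of the same cells. Most genes of the family lie together on the long arm of chromosome 1, in band 1q21, and S100P lies apart on chromosome 4. The genes described here were chosen by name: S100A4, S100A6, S100A8, S100A9, S100A10, S100A11, S100A12, S100A13 and S100P, which are 9 of the 58884 genes in the table. Of these 9, 8 lie on chromosome 1.

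The RNA came from HL-60, an established acute myeloid leukemia line with mutated RAS whose cells resemble promyelocytes. Cells stably carrying a lentiviral short hairpin RNA (shRNA) against EZH2, the enzyme through which Polycomb complex PRC2 methylates histone H3, made up 3 libraries, numbered 1, 3 and 4. Cells carrying a scrambled shRNA gave 3 control libraries, numbered 3, 4 and 5. All cells were selected with puromycin, which was removed 2 days earlier, and were held for 24 hours in medium with 0.05% fetal bovine serum. The question is how transcript levels differ when EZH2 is reduced, here for the S100 genes. The labels give no hairpin sequence and do not say that libraries come from different cultures. The spread behind each p-value is therefore that between 3 libraries per group and may be technical.

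EZH2 itself had 79.5, 83.2 and 77.2 CPM (reads of a gene scaled to library size) in EZH2 shRNA libraries 1, 3 and 4, against 147.6, 150.5 and 150.3 CPM in control libraries 3, 4 and 5. The EZH2 shRNA libraries held between 50809853 and 85074624 counts and the control libraries between 39717343 and 51622861. The promyelocyte markers had a summed level of 9610 to 10010 CPM in EZH2 shRNA libraries and 9590 to 10400 CPM in control libraries. Most of it came from myeloperoxidase (MPO), with means of 9416 and 9795 CPM. PRTN3 and AZU1 were higher with the EZH2 shRNA (means 96.5 against 21.8 CPM and 60.8 against 37.8 CPM). CTSG and MS4A3 were lower (149.5 against 174.5 CPM and 46.2 against 60.7 CPM). ELANE, also on that list, was not among the genes tested. Mature neutrophil markers summed to 29.3 to 33.4 CPM in EZH2 shRNA libraries and 28.2 to 33.3 CPM in controls, with MMP8, LCN2 and ALPL at 0 counts. Monocyte markers summed to 33.0 to 36.2 CPM in EZH2 shRNA libraries, against 50.5 to 52.0 CPM in controls. Eosinophil markers summed to 382 to 408 CPM in EZH2 shRNA libraries, against 160 to 163 CPM in controls, and mast cell and basophil markers to 428 to 452 CPM, against 123 to 125 CPM. Erythroid and megakaryocytic markers summed to 3.85 to 4.34 CPM in EZH2 shRNA libraries and 1.86 to 2.40 CPM in controls, lymphoid markers to 15.6 to 16.3 CPM and 13.5 to 14.6 CPM, and the 4 epithelial markers had no count. HBB, ALAS2, PF4 and MS4A1 of these lists were also at 0. Several of these sums came mostly from a single gene. In the mast cell and basophil list this was GATA2, with means of 435.4 CPM in EZH2 shRNA libraries and 122.5 CPM in controls. In the same group order, CSF3R averaged 29.4 and 27.6 CPM (neutrophil), LYZ 32.0 and 46.2 CPM (monocyte) and NKG7 15.1 and 13.6 CPM (lymphoid). Over all genes tested, 23.8% were called higher and 22.9% lower at an adjusted p under 0.05. Of the markers tested, 2 of 5 promyelocyte genes were higher and 2 lower. Among monocyte genes 2 of 4 were higher and 2 lower, and among neutrophil genes 0 of 3 were higher and 1 lower. All 7 tested eosinophil genes, 3 of 4 mast cell and basophil genes and 2 of 2 erythroid and megakaryocytic genes were higher, and neither of the 2 lymphoid genes was called. The part of these shifts in the S100 results was not tested. In bulk RNA, fewer cells of a type and less RNA per cell cannot be told apart.

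S100A4, S100A6 and S100A10 were higher and S100A11 was lower with the EZH2 shRNA. S100A13 and S100P did not pass the test. The calprotectin genes and S100A12, the members most typical of mature neutrophils and monocytes, were at or next to 0 counts in all 6 libraries, so these libraries hold transcripts of only part of the S100 genes known from mature myeloid cells. Genes that passed an expression filter on counts per library (16859 genes) were tested with edgeR's quasi-likelihood test. Of the 6 S100 genes tested, 3 rose, 1 fell and 2 did not pass at an adjusted p under 0.05, with a median log2 fold change of 0.36. Over all genes tested the median was 0.01. The background is high: 23.8% of all genes tested were called higher, 22.9% were called lower and 46.7% were called in either direction, so a call alone does not set an S100 gene apart.

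The 250 bases before the start sites of 4 members are shown because they contrast the adjacent pair that moved in opposite directions (S100A10 and S100A11), the member with the largest rise (S100A4) and a calprotectin gene that was almost silent (S100A9). They are from RefSeq on GRCh38.p14, written 5′ to 3′ on the strand of the gene, and all 9 members had an entry. Capitals mark matches on either strand. The motif searched for the TATA box was TATAAA. The GC box, bound by SP1, was searched as GGGCGG. AP-1 sites were searched as TGANTCA, where N is any base. The letters for C/EBP sites were TTGCNNAA, and those for the core of ETS factor sites were GGAAGT. The windows are chr1:151993860-151994109 (minus strand) for S100A10, chr1:152037005-152037254 (minus) for S100A11, chr1:153545807-153546056 (minus) for S100A4 and chr1:153357604-153357853 (plus) for S100A9.
S100A10: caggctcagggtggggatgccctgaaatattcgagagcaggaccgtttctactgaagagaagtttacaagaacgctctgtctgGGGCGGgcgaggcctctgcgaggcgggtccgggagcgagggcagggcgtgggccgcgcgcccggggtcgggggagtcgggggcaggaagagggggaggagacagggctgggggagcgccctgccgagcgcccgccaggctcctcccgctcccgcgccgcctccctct
S100A11: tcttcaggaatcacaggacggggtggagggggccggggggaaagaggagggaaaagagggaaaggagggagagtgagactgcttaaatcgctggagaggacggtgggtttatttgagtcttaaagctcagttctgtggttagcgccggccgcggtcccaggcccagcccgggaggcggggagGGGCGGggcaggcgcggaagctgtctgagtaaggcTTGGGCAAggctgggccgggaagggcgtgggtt
S100A4: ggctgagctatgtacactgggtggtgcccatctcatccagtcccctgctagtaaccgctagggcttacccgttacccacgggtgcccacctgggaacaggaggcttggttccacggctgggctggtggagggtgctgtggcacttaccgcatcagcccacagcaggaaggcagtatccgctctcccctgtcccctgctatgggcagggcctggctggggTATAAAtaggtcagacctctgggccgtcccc
S100A9: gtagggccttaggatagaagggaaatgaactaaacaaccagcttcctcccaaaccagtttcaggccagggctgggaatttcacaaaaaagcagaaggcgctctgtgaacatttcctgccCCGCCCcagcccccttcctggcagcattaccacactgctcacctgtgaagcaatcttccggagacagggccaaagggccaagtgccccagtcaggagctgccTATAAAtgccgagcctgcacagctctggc
A TATA box stood 31 bases before the S100A4 start and 29 bases before the S100A9 start, and neither S100A10 nor S100A11 had one. Of the members not shown, S100P had one 28 bases and S100A12 one 8 bases before the start. This motif was found in 10.7% of the 35116 RefSeq promoter windows of that length. A GC box was found in the windows of S100A6, S100A9, S100A10, S100A11 and S100A13, and in 42.6% of all windows. In the S100A6 window 2 of its 3 GC boxes overlapped each other. A C/EBP match was found for S100A11 and S100A12, and in 9.05% of all windows. An AP-1 match was found for S100A12, and in 6.57% of all windows, and an ETS core for S100A13 and S100P, and in 19.5%. The windows of S100A4, S100A6 and S100A11 lie inside the spans the deposited table gives to these genes, and those of S100A8 and S100A13 lie upstream of them and do not adjoin them. Other start sites were not examined. A match is a description and not evidence of binding.

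The windows also differed in CpG content, counted as CG dinucleotides per window. S100A6 and S100A10 had 24 each, S100A11 and S100A13 had 15 each and S100A4 had 7. S100A9 and S100P had 4 each, S100A8 had 2 and S100A12 had 1. The median over all windows was 11. The 4 members with the lowest levels in these cells were the 4 with the fewest CpGs, which is a description of 9 genes.

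Levels of different genes were compared per length, with the FPKM values the authors deposited. S100A11 was the highest member in both groups, at 36.8 ± 0.784 FPKM in EZH2 shRNA libraries and 62.5 ± 4.13 FPKM in control libraries (SD, n = 3 each, as throughout). S100A10 came next, at 26.9 ± 0.726 FPKM with the EZH2 shRNA and 21.04 ± 0.916 FPKM in controls. S100A4 followed at 17.6 ± 1.90 and 11.5 ± 0.741 FPKM, in the same group order, and S100A6 at 5.70 ± 0.204 and 4.34 ± 0.263 FPKM. S100A13 averaged 1.45 ± 0.167 FPKM with the EZH2 shRNA and 1.18 ± 0.1001 FPKM in controls, and S100P averaged 0.525 ± 0.168 and 0.415 ± 0.139 FPKM. Within each group, no library of one of these 6 genes reached the range of the next in that order. In controls the ranges of S100A9 and S100A8 overlapped, and both were listed at 0 with the EZH2 shRNA. S100A12 was listed at 0 in both groups. The order depends on the gene lengths behind the authors' values.

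The total over the 9 genes was 89.0 ± 2.77 FPKM in EZH2 shRNA libraries and 101.2 ± 5.21 FPKM in controls, and its make-up differed more than its size. S100A11 made up 41.4% ± 1.43 of the total with the EZH2 shRNA and 61.7% ± 0.961 in controls. S100A10 made up 30.2% ± 0.187 and 20.8% ± 0.401, and S100A4 19.8% ± 1.53 and 11.4% ± 0.966, in the same group order. These shares follow from the single-gene values and were not tested separately.

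**Figure D1:**
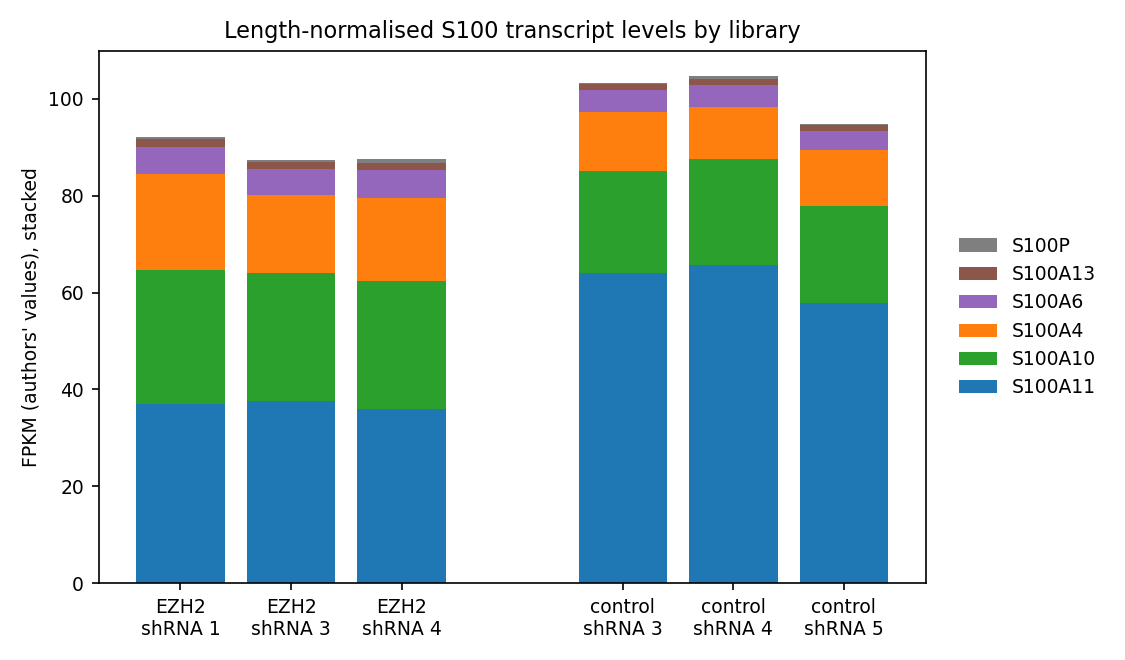
Stacked FPKM values deposited by the authors for 6 S100 genes (vertical axis, linear) in EZH2 shRNA libraries 1, 3 and 4 and control libraries 3, 4 and 5. S100A11 falls to 41.4% of the total in the EZH2 shRNA libraries, against 61.7% in controls; S100A8, S100A9 and S100A12 are too low to draw and are left out.

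S100A11 binds annexins A1 and A2 and takes part in membrane repair and growth control. Its gene (ENSG00000163191; GRCh38 chromosome 1, 152032506 to 152047907, minus strand) had 24.2, 24.5 and 23.5 CPM in EZH2 shRNA libraries 1, 3 and 4, against 41.5, 42.7 and 37.7 CPM in control libraries 3, 4 and 5. Every EZH2 shRNA library was below every control library, and the EZH2 shRNA libraries lay within about 1 CPM of each other. It fell by 0.76 on the log2 scale (SE 0.06, edgeR adjusted p = 1.57e-08), to 0.592 of the control level. Of all genes tested, 11.3% changed by more, in either direction. The processed pseudogene S100A11P1, which could share reads with it, had 3 counts over the EZH2 shRNA libraries and 6 over the controls, and an antisense gene across its body, AL450992.1, had 1 and 3.

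S100A10, also called p11, does not bind calcium and works as a dimer attached to annexin A2 that presents plasminogen at the cell surface. Its gene (ENSG00000197747; chromosome 1, 151982915 to 151993859, minus strand) had 28.3, 27.0 and 26.9 CPM in EZH2 shRNA libraries 1, 3 and 4, against 21.3, 22.3 and 20.4 CPM in control libraries 3, 4 and 5. The groups did not overlap. Among all genes tested, the EZH2 shRNA libraries were all above the controls for 27.9% and all below them for 27%, or 54.9% together. S100A10 rose by 0.36 on the log2 scale (SE 0.06, edgeR adjusted p = 7.89e-05), a 1.28-fold difference. S100A10 and S100A11 lie 38.6 kb apart on the same strand, with 1 annotated gene between them that was not tested. The ratio of S100A11 to S100A10 in FPKM was 1.34, 1.41 and 1.36 in EZH2 shRNA libraries 1, 3 and 4, and 3.04, 2.99 and 2.87 in control libraries 3, 4 and 5. This pair was singled out after its values were seen, and its ratio was not tested.

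S100A4, which binds the heavy chain of non-muscle myosin IIA and is known for its part in cell motility, had the largest rise. Its gene (ENSG00000196154; chromosome 1, 153543613 to 153550136, minus strand) had 18.8, 15.2 and 16.4 CPM in EZH2 shRNA libraries 1, 3 and 4, against 11.6, 10.2 and 10.9 CPM in control libraries 3, 4 and 5. Library 1 was the highest of the EZH2 shRNA libraries and all 3 were above every control. S100A4 rose by 0.63 on the log2 scale (SE 0.09, edgeR adjusted p = 1.35e-05), or 1.54-fold, and 15.2% of all genes tested changed by more. Its span contains S100A3 on the same strand, which had 0 counts in all 6 libraries.

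S100A6, or calcyclin, binds the ubiquitin-ligase adaptor CACYBP and several annexins. Its gene (ENSG00000197956; chromosome 1, 153534599 to 153536244, minus strand) had 5.60, 5.36 and 5.77 CPM in EZH2 shRNA libraries 1, 3 and 4, against 4.38, 4.36 and 3.94 CPM in control libraries 3, 4 and 5. The groups were apart and each was tight. S100A6 rose by 0.40 on the log2 scale (SE 0.11, edgeR adjusted p = 0.00493), a 1.32-fold difference. Its gene lies 7.4 kb from that of S100A4, with S100A5 between them.

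S100A13, which takes part in the release of FGF1 and IL1A from cells, did not pass. Its gene (ENSG00000189171; chromosome 1, 153618787 to 153631360, minus strand) had 3.68, 3.005 and 3.04 CPM in EZH2 shRNA libraries 1, 3 and 4, against 2.48, 2.88 and 2.498 CPM in control libraries 3, 4 and 5. The lowest EZH2 shRNA library was only just above the highest control. Its log2 fold change of 0.30 had an SE of 0.14 (edgeR adjusted p = 0.0973), and it was 0.19 without EZH2 shRNA library 1 (edgeR adjusted p = 0.318). S100A1 overlaps it on the other strand and had 0 counts in all 6 libraries.

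S100P, a partner of ezrin and IQGAP1 and a ligand of the receptor RAGE, was barely detected. Its gene (ENSG00000163993; chromosome 4, 6693878 to 6697170, plus strand) had 10, 11 and 29 counts in EZH2 shRNA libraries 1, 3 and 4, or 0.201, 0.205 and 0.342 CPM. In control libraries 3, 4 and 5 it had 7, 14 and 6 counts, or 0.177, 0.269 and 0.141 CPM. The groups overlapped, and the log2 fold change of 0.37 (SE 0.43, edgeR adjusted p = 0.522) rested on the deepest library. Without EZH2 shRNA library 4 it was 0.02, and without control library 4 it was 0.69, with no call in either case. No difference in S100P was detectable at this depth.

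**Figure D2:**
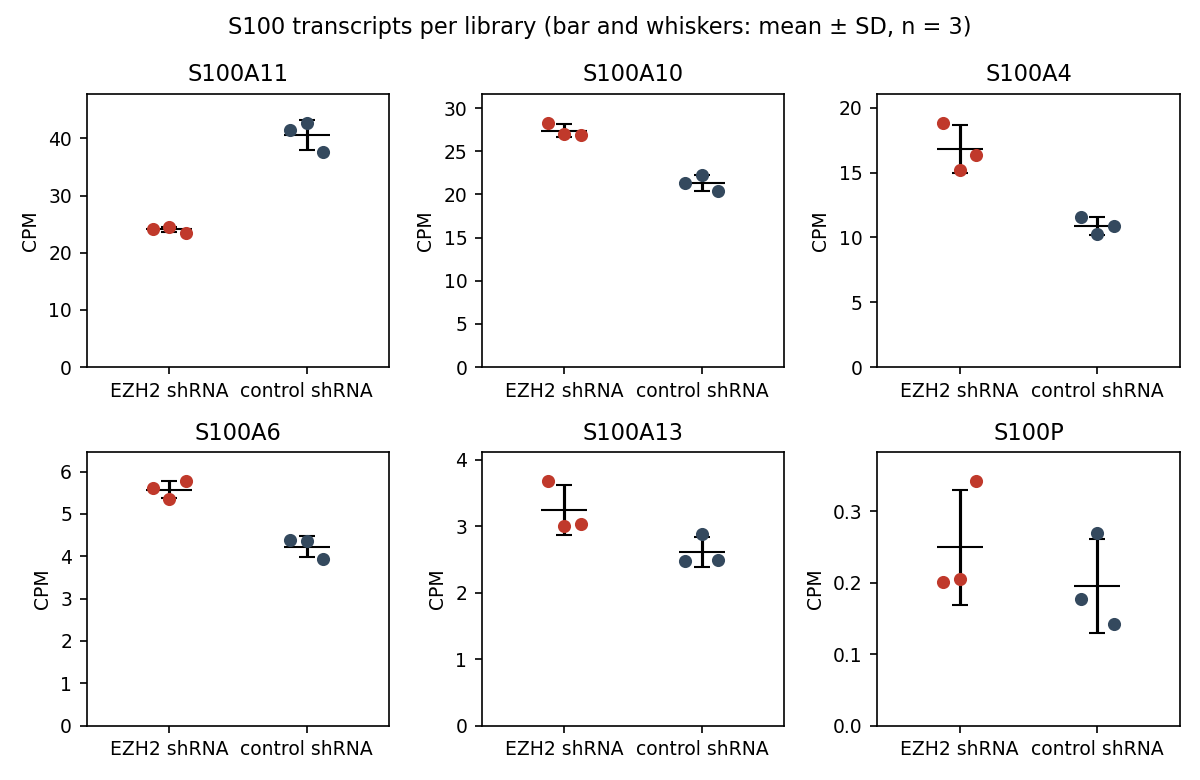
CPM (vertical axes, linear, each from 0) of the 6 tested S100 genes in single libraries (points), with mean ± SD of 3 libraries per group. The EZH2 shRNA points lie below all control points for S100A11 and above them for S100A10, S100A4, S100A6 and, narrowly, S100A13, and the groups overlap for S100P.

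S100A8, S100A9 and S100A12 did not pass the expression filter. S100A9 (ENSG00000163220; chromosome 1, 153357854 to 153361023, plus strand) had 0 counts in each EZH2 shRNA library, against 3, 3 and 6 counts in control libraries 3, 4 and 5. Over 189084260 counts in the EZH2 shRNA group a floor of 3 counts corresponds to 0.0159 CPM. The pooled control level of S100A9 was 0.0899 CPM, 5.67-fold above that floor. Without EZH2 shRNA library 4, the deepest, this ratio was 3.12-fold, and leaving out each other library gave ratios between 4.07-fold and 6.93-fold. The floor covers counting error in the EZH2 shRNA group only. The control level, 12 reads in 133443380, was taken without its own counting error, so the ratio is not a strict lower bound. S100A9 was called lower when the expression filter was dropped (edgeR adjusted p = 0.0092). S100A8 (ENSG00000143546; chromosome 1, 153390032 to 153391073, minus strand) had 0 counts in each EZH2 shRNA library and 0, 0 and 4 counts in control libraries 3, 4 and 5. All reads of S100A8 therefore came from control library 5, which also had the most reads of S100A9. S100A8 was not called without the filter (edgeR adjusted p = 0.161). S100A12 (ENSG00000163221; chromosome 1, 153373711 to 153375621, minus strand) had 0 counts in all 6 libraries, so any level was below the same floor of 3 counts per group. The ratio of S100A8 to S100A9 could not be given, since both are 0 in every EZH2 shRNA library.

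Along chromosome 1 the members fall into separate stretches. S100A11 lies 1309.9 kb from S100A9, and of the 65 annotated genes in that gap 1 was tested. S100A9, S100A12 and S100A8 are neighbours, S100A6 begins 143.5 kb beyond S100A8, and S100A13 begins 68.7 kb beyond S100A4. Of 26 tested genes within 500 kb of a member that are not S100 genes, 3 were higher, 7 were lower and 16 did not pass. Their median log2 fold change was 0.00. Over all genes tested, 23.8% were higher and 22.9% lower. CGN, a tight-junction protein gene, was at 2.11, TDRKH, a piRNA-pathway gene, at -0.40, TUFT1 at -0.75 and GATAD2B, a subunit of the NuRD complex, at -0.17 (edgeR adjusted p = 2.12e-06, 0.000322, 0.0004 and 0.00277, listed in that order of genes). TDRKH overlaps an antisense gene with 94 counts over the EZH2 shRNA libraries and 111 over the controls, and TUFT1 contains a pseudogene on its strand. Of the 1727 tested genes of chromosome 1, 442 were higher and 329 lower, with a median of 0.04.

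**Figure D3:**
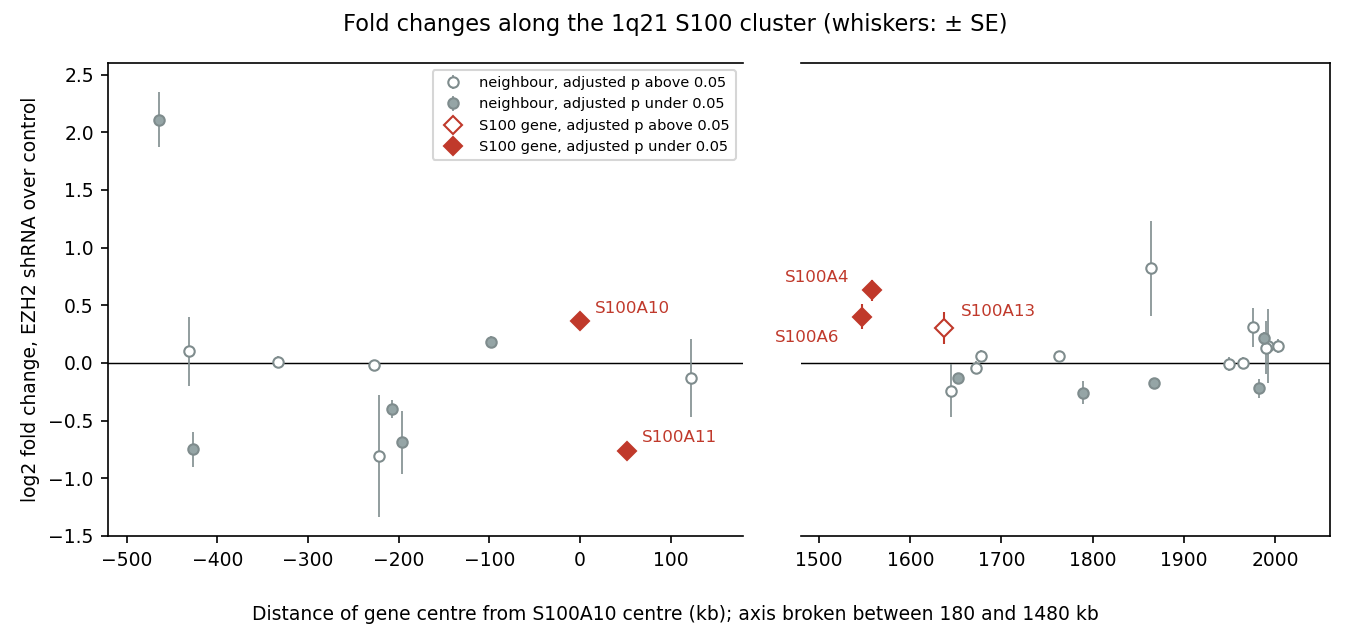
Log2 fold change, EZH2 shRNA over control (vertical axis, whiskers ± SE), against distance of the gene's centre from the centre of S100A10 in kb (horizontal axis, broken), for tested S100 genes (red diamonds) and other tested genes within 500 kb of a member (grey circles), filled where the adjusted p was under 0.05. S100A10 at 0.36 and S100A11 at -0.76 stand next to each other on opposite sides of 0.

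None of the other 12 S100 genes passed the expression filter, and 7 of them (S100A1, S100A3, S100A7, S100A7A, S100A7L2, S100A16 and S100G) had 0 counts in all 6 libraries. S100A5, which lies between S100A6 and S100A4, had 5, 7 and 1 counts in EZH2 shRNA libraries 1, 3 and 4, against 0 counts in each control library. S100Z had 4, 0 and 3 counts in the EZH2 shRNA libraries and 0 in each control library. Summed over libraries, S100A14 had 1 count with the EZH2 shRNA and 5 in controls, S100B had 5 and 4, and S100A2 had 2 and 2. S100A5, S100Z, S100A14, S100B and S100A2 were named after their values were seen.

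Of 21 partners and receptors of S100 proteins listed, 20 were in the table used, 16 were tested, 5 were higher, 4 were lower and 7 did not pass, with a median log2 fold change of 0.06. Among all genes tested, 23.8% were higher and 22.9% lower, so these counts are near the background. ANXA1, the annexin bound by S100A11 and a regulator of inflammation, had 236.6, 205.5 and 219.7 CPM in EZH2 shRNA libraries 1, 3 and 4, against 39.2, 39.1 and 41.2 CPM in control libraries 3, 4 and 5. It rose by 2.47 on the log2 scale (SE 0.05, edgeR adjusted p = 3.35e-15), while S100A11 fell. TLR4, an innate receptor for S100A8 and S100A9, had 38.4, 36.3 and 36.5 CPM with the EZH2 shRNA and 23.1, 22.2 and 23.7 CPM in controls (log2 fold change 0.69, edgeR adjusted p = 2.31e-08). ANXA6, an annexin that binds S100A6 and S100A11, averaged 114.5 ± 2.84 CPM in EZH2 shRNA libraries and 150.6 ± 1.76 CPM in controls (-0.40 on the log2 scale). IQGAP1, a scaffold protein bound by S100P, averaged 215.6 ± 8.59 and 284.4 ± 2.23 CPM in the same group order (-0.40).

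The other 5 partners that were called are given after their values were seen. ANXA2, the annexin to which S100A10 is tethered, was low, with 3.15, 2.03 and 2.34 CPM in EZH2 shRNA libraries 1, 3 and 4, against 1.012, 1.055 and 1.013 CPM in control libraries 3, 4 and 5. It rose by 1.28 on the log2 scale (SE 0.19, edgeR adjusted p = 4.09e-05), so both genes of that complex were higher. AHNAK, a large scaffold protein that binds this complex, averaged 252.3 ± 19.0 CPM with the EZH2 shRNA and 314.9 ± 18.2 CPM in controls and fell by 0.32. MYH9, the myosin heavy chain bound by S100A4, averaged 752.1 ± 14.4 and 949.0 ± 35.2 CPM in the same order and fell by 0.34. NPTN and BSG, surface proteins that bind S100A8 and S100A9, rose by 0.24 and 0.16. Genes without a call included CACYBP at 0.09, CD33 at 0.08, AGER (which encodes RAGE) at 0.04 and EZR at -0.06.

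**Figure D4:**
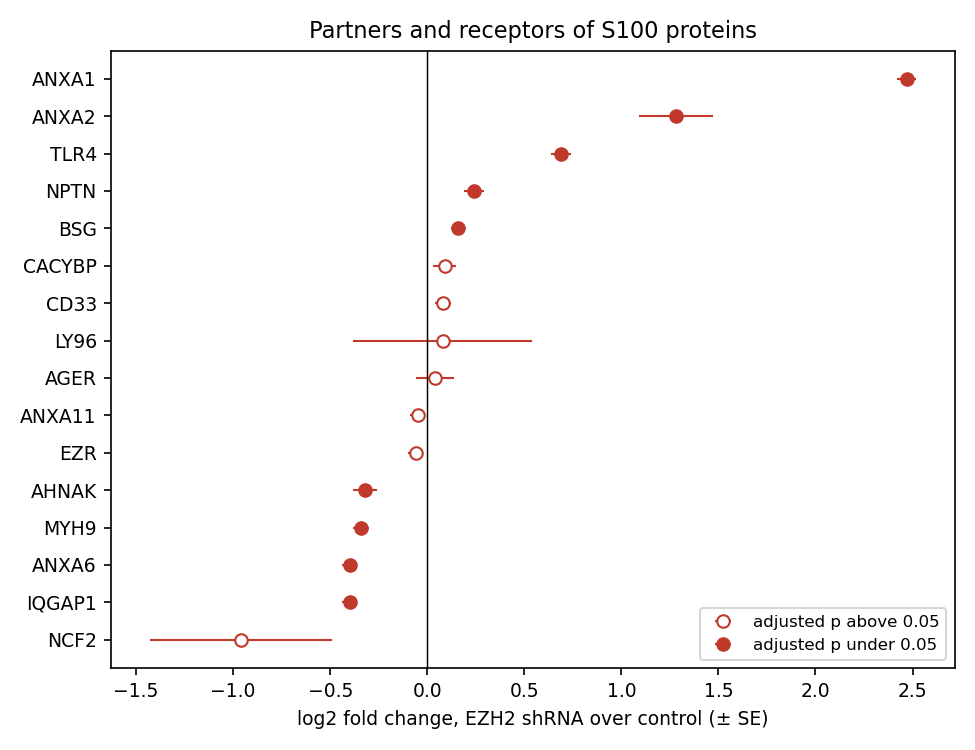
Log2 fold change, EZH2 shRNA over control (horizontal axis, whiskers ± SE), of the 16 tested partners and receptors of S100 proteins, filled where the adjusted p was under 0.05. ANXA1 at 2.47 and ANXA2 at 1.28 are farthest to the right, and AHNAK, MYH9, ANXA6 and IQGAP1 are the called genes left of 0.

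Among myeloid transcription factors, several of which act on S100A8 and S100A9 in maturing cells, 6 of the 10 tested were higher, 1 was lower and 3 did not pass, with a median log2 fold change of 0.22. Over all genes tested these shares were 23.8% higher and 22.9% lower. CEBPA and CEBPE, which drive granulocyte development, were at 181.3 ± 2.43 and 442.2 ± 7.38 CPM with the EZH2 shRNA, against 128.8 ± 7.24 and 340.0 ± 6.64 CPM in controls (log2 fold changes 0.49 and 0.38, edgeR adjusted p = 1.03e-07 and 6.13e-07). RUNX1 and EGR1 were higher by 0.39 and 0.32, and STAT3 and MYB by 0.24 and 0.21. The factor called lower was CEBPD, at 2.22 ± 0.382 CPM with the EZH2 shRNA and 5.24 ± 2.24 CPM in controls (log2 fold change -1.24, edgeR adjusted p = 0.0201). CEBPB (-0.22), SPI1 (0.09) and GFI1 (0.03) were not called. STAT3, MYB, CEBPD and these uncalled factors were named after their values were seen. S100A8, S100A9 and S100A12 had no read in the same EZH2 shRNA libraries, and S100A12 had none in controls either.

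The genes closest in pattern to the members with the largest changes were sought among 13419 genes with a mean of at least 1 CPM, by the root mean square difference of centred log2 CPM over the 6 libraries. For S100A11 these were RTN4 (0.03), PIK3IP1 (0.048) and MGAT4A (0.05), which changed by -0.79, -0.66 and -0.71 on the log2 scale. For S100A4 they were FDXR (0.043), DNAJB4 (0.046) and PIK3C2B (0.054), which changed by 0.68, 0.64 and 0.59. Since the 6 libraries form 2 groups, genes with a similar difference between groups score as alike.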

How the data were processed

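Polyadenylated RNA was sequenced from 6 libraries as stranded single reads of 50 bases, per the labels' protocols. The authors deposited raw counts per gene and an FPKM table (scaled to gene length and library size). Tools listed in the submitters' processing notes are DESeq2 1.24.0, R 3.6.1, Picard 2.18.24 and STAR 2.5.2b, on GRCh38 (hg38) and without roles. How reads were counted, with which annotation and whether by strand, is not stated there. The deposited gene spans of all 9 members equal those of GENCODE on GRCh38.

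From the counts, CPM (library size scaled by TMM factors), fold changes and tests were computed with edgeR 4.0.16 in R 4.3.3 (quasi-likelihood, robust, group as only term), after filterByExpr, with Benjamini-Hochberg adjustment over the 16859 genes tested; the threshold was 0.05. SE was derived from the fold change and F statistic. Alternatives used limma 3.58.1, DESeq2 1.42.0, other scalings and filters, left-out libraries and a title-number block. A floor of 3 counts was between 0.0353 and 0.0759 CPM per library. Chi-square per degree of freedom between libraries of the same group was 3.02 to 15.9, highest between EZH2 shRNA libraries 1 and 3. These values lie above sampling noise, which does not show that libraries come from different cultures. All 6 were used. Floors cover counting error only.

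All 9 members were named, with every other S100 gene that passed the filter and up to 4 genes of smallest p per context list (partners and receptors, transcription factors, neighbours); the cell type marker lists were promyelocyte, monocyte, mature neutrophil, eosinophil, mast cell and basophil, erythroid and megakaryocytic, lymphoid and epithelial. The members and lists were chosen with earlier results of these data known. MCAM, on the partner list, was not analysed here.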

Additional observations from a re-analysis of the deposited data

How the results depend on the processing

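The 3 calls of S100A4, S100A6 and S100A10 as higher and the call of S100A11 as lower kept their direction and their side of the threshold in all 17 alternatives run, and S100A13 and S100P were not called in any alternative that tested them. The log2 fold change of S100A4 ranged from 0.53 to 0.67, that of S100A6 from 0.33 to 0.43, that of S100A10 from 0.30 to 0.39 and that of S100A11 from -0.81 to -0.72. The count of members called lower was 2 rather than 1 in both settings without an expression filter, edgeR on counts and limma on log2 of FPKM + 1, through S100A9 (limma adjusted p = 0.0333). With chromosome medians removed the values were 0.61, 0.39, 0.35 and -0.77 for S100A4, S100A6, S100A10 and S100A11. The title numbers 3 and 4 occur in both groups but are not said to pair libraries. Deviations from the group means of same-numbered libraries correlated across 10936 genes at 0.107 and 0.119, a hint from the data only. Differently numbered pairs lay between -0.141 (EZH2 shRNA library 4 with control library 3) and 0.053, so these weak values do not settle a pairing. With that number as a replicate block, 3 members were higher and 1 lower, and 7721 genes were called against 7866 without it. In that fit EZH2 shRNA library 1 and control library 5 are each alone in their block and add nothing to the group difference. Its fold changes rest on libraries 3 and 4 of each group, so it is not a check on all 6 libraries. The count of calls over all genes ranged from 5906 to 8122. S100P was tested in no fit with a filter of 1 CPM. The ratio of S100A8 to S100A9 had no value in any setting. Depth limits what can be said of S100A8, S100A9, S100A12 and S100P.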
